A study of Mus musculus and Homo sapiens with 34 samples.

Results

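The genes described here are the cytosolic and mitochondrial heat shock proteins, J-domain proteins of several compartments and the 2 heat shock factors HSF1 and HSF2. They were chosen by gene symbol: the HSPA, HSPB, HSPH and HSP90A families, HSPD1, HSPE1, the DNAJA, DNAJB and DNAJC families and both factors. The choice was made with earlier results of these data known. The endoplasmic reticulum stress genes HSPA5, DNAJB9 and DNAJC3 were left out. Other members of that compartment, such as DNAJB11, DNAJC1 and DNAJC10, were kept. The rule found 68 of 55450 mouse genes and 80 of 58870 human genes in the count tables. The study grew spheroids of 3 colorectal carcinoma lines, mouse CT26, mouse MC38 and human HT29, in serum-containing medium on plates to which cells do not attach. In each line, spheroids of cells alone were compared with spheroids seeded with SIS ECM, a decellularized extracellular matrix (SIS is the field's abbreviation for small intestinal submucosa). Polyadenylated RNA was taken on day 7 from tubes of 10 spheroids each, with 6 libraries per group in CT26 and HT29 and 5 per group in MC38. No genetic change, drug or heat treatment is named for any group, every group shares the medium and plate, and each line is a single established line of cancer cells with no host tissue, so that group differences are differences between cultures of 1 line.

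Heat shock proteins are chaperones that bind unfolded or misfolded proteins. HSP70 proteins (HSPA genes) hold and release client proteins in an ATP cycle, J-domain proteins (DNAJ genes) bring clients to HSP70 and start ATP hydrolysis, and HSP110 proteins such as HSPH1 exchange the nucleotide. HSP90 completes the folding of kinases and receptors, small heat shock proteins (HSPB genes) hold unfolded proteins without ATP, and HSPA9, HSPD1 and HSPE1 fold proteins in mitochondria. Under proteotoxic stress the transcription factor HSF1 binds heat shock elements, alternating GAA and TTC units, in the promoters of many of these genes; HSPA1A, HSPA1B and HSPA6 are the strongly inducible HSP70 genes, while HSPA8 is the constitutive one. Cancer cells often hold high levels of these chaperones.

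Total counts per library ranged from 15826190 to 21053793 in CT26, from 18877087 to 24196115 in MC38 and from 25515239 to 37001506 in HT29. Levels are given as CPM, which scale each count to the size of its library. The members took 1.28% to 1.36% of all counts in CT26 libraries, 1.19% to 1.42% in MC38 and 0.996% to 1.11% in HT29. All 8 epithelial markers checked were above 1 CPM in HT29, 2 of the 8 (Krt18 and Cdh17) in CT26 and 0 of the 8 in MC38. Of 5 fibroblast markers, 3 (Col3a1, Dcn and Pdgfra) were above 1 CPM in both mouse lines and 0 in HT29. In CT26 cells alone the fibroblast markers summed to 22.1 to 44.5 CPM and the epithelial markers to 8.09 to 13.6 CPM. In MC38 cells alone the fibroblast markers, led by Col3a1, summed to 3509 to 4406 CPM. The endothelial marker Pecam1 was above 1 CPM in MC38, and the smooth muscle marker ACTA2 in HT29. The 6 leukocyte markers summed to at most 0.522 CPM in any library of the 3 lines. In the mouse lines the libraries with sample numbers 1 to 3 stood apart from those numbered 4 to 6, and the labels do not say what the numbers mean. The share of counts from mitochondrially encoded genes also moved with the numbers, from 4.41% ± 0.598 (SD, n = 6) to 8.07% ± 0.362 (SD, n = 6) in CT26 and from 4.15% ± 0.723 (SD, n = 5) to 6.28% ± 0.599 (SD, n = 5) in MC38, and values are therefore also given within each set of numbers.

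Promoters are shown for 3 of the genes that the results below turn on, and all 3 hold the motif marked here. Hspa1b had the largest fall with SIS ECM among the members, and Hsph1 and Hspe1 differed between sample numbers in both mouse lines. Each line gives the 250 bases upstream of a RefSeq transcript start in build GRCm38.p6, 5′ to 3′ on the gene's strand, and capitals mark the GAA and TTC units of GAANNTTC or TTCNNGAA.
Hspa1b, chr17:34959239-34959488, minus strand: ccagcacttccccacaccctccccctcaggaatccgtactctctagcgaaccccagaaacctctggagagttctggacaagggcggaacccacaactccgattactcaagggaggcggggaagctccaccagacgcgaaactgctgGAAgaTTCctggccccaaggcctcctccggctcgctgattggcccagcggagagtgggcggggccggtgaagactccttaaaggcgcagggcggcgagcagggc
Hspe1, chr1:55087898-55088147, plus strand: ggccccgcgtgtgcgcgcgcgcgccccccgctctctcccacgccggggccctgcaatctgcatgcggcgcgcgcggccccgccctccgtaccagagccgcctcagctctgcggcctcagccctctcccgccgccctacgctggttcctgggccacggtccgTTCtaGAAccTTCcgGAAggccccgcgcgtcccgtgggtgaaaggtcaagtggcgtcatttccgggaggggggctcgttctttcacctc
Hsph1, chr5:149636316-149636565, minus strand: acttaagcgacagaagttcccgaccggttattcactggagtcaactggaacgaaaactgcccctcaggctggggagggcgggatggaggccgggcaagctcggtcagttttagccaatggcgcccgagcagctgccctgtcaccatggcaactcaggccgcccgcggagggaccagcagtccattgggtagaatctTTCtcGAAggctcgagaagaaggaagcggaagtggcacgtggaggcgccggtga
The RefSeq promoter table held 54 of the 68 mouse members. A pair of units, GAANNTTC or TTCNNGAA (each its own reverse complement, so that both strands are covered), lay in the upstream windows of 14 of these 54 genes (25.9%) and of 3932 of all 27025 genes in the table (14.5%). The longer form of 3 alternating units was found for 3 members, Dnajb6, Hspd1 and Hspe1, and for 0.514% of all genes. Hspd1 and Hspe1 are neighbours read in opposite directions from this stretch, and the Hspe1 window above holds 3 overlapping pairs. The windows of Hspa1b and its copy Hspa1a were identical at 247 of 250 bases (98.8%), each with a single pair 104 bases before the start. The windows of the other mouse members called with SIS ECM, Dnaja3, Dnajb2, Dnajb14 and Hspb8, held no pair. A match describes letters in a window and not binding.

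Among the abundant chaperones of the mouse lines, Hsp90ab1, the constitutive HSP90, stood highest of 5 genes per kilobase of merged exon in either set of sample numbers. The order of the others depended on the sample numbers. In CPM without scaling by length, Hspa8 lay above Hsp90ab1 in cells alone samples 4 to 6 of CT26 (2430 to 2586 against 2287 to 2421). The same was so in MC38 samples 4 and 5 (3603 and 3776 against 2649 and 2914). In samples 1 to 3 Hsp90ab1 lay above Hspa8 in both lines, so its first place at the high numbers rests on the length used. Per kilobase of merged exon, CT26 cells alone held 848 CPM of Hsp90ab1, 504 CPM of Hspa8, 480 CPM of Hspd1, 452 CPM of Hsp90aa1, the inducible HSP90, and 324 CPM of Hspa9. In samples 1 to 3 of CT26, Hspd1 (458 to 501 CPM per kilobase) lay above Hspa8 (416 to 425) and Hsp90aa1 (377 to 408), and in samples 4 to 6 it lay at 473 to 484, below Hspa8 (565 to 601) and Hsp90aa1 (499.7 to 512). Hspa9 overlapped with Hsp90aa1 in samples 1 to 3 (371 to 397) and lay below it in samples 4 to 6 (259 to 266). In MC38 the means were 989 CPM of Hsp90ab1, 595 CPM of Hspa8, 312 CPM of Hsp90aa1, 303 CPM of Hspd1 and 202 CPM of Hspa9 per kilobase. There Hspd1 lay above Hsp90aa1 in samples 1 to 3 (279 to 299.8 against 234 to 275 CPM per kilobase) and below it in samples 4 and 5 (323 to 326 against 385 to 412). Hsf1, the main heat shock factor, stood at 3.21 CPM per kilobase in CT26 and 3.76 in MC38. Exon lengths for the human genes were not used here, so levels of different genes are not compared in HT29.

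The inducible HSP70 genes and 2 small heat shock proteins differed in level between the lines. Hspa1b was at 1.82 ± 0.239 CPM (SD, n = 6) in CT26 and 2.35 ± 0.442 CPM (SD, n = 5) in MC38 cells alone, against 411 ± 38.4 CPM (SD, n = 6) of HSPA1B in HT29. HSPA1A stood at 345 ± 31.8 CPM (SD, n = 6) in HT29, while Hspa1a had at most 3 counts in any mouse library. HSPB1, the small heat shock protein also called HSP27, was at 137 ± 8.08 CPM (SD, n = 6) in HT29 cells alone, and Hspb1 had 1 count in 1 CT26 library and none in any MC38 library. Whether these mouse counts show the level of Hspb1 or how the authors' counting assigned its reads was not tested. Hspb8, a partner of the cochaperone Bag3 in autophagy, showed the opposite order, with 58.6 ± 6.78 CPM (SD, n = 6) in CT26, 70.1 ± 3.11 CPM (SD, n = 5) in MC38 and 0.0480 ± 0.0590 CPM (SD, n = 6) in HT29. These lines were normalised separately and come from 2 species, so the levels are set side by side without a test.

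SIS ECM left most of these genes without a called change. Of the tested members, those with enough counts, 3 of 51 changed in CT26 (1 rose and 2 fell), 2 of 57 in MC38 (both fell) and 9 of 61 in HT29 (2 rose and 7 fell), at a Benjamini-Hochberg adjusted p under 0.05 in edgeR's quasi-likelihood test. The same rule called 9.25% of all tested genes in CT26, 9.17% in MC38 and 13.5% in HT29. For both directions together, the members' shares were therefore below or near the background. By direction it called 6.15% of genes higher and 3.1% lower in CT26, 3.82% and 5.36% in MC38, and 7.75% and 5.79% in HT29. In HT29 the members that fell, 7 of 61, were thus a larger share than over all genes. Those that rose, 2 of 61, were a smaller one, and this split was not tested. The median log2 fold change of the tested members was -0.01 in CT26, 0.01 in MC38 and -0.03 in HT29, beside 0.01, 0.01 and -0.00 over all genes. No member was called in the same direction in 2 lines. Groups did not overlap for 4 of 51 members in CT26 (6.95% of all genes), 4 of 57 in MC38 (9.65%) and 7 of 61 in HT29 (6.39%). The HT29 share was larger than over all genes. With 1 library left out in turn, the count became 6 in CT26 without SIS ECM sample 4, 1 in MC38 without cells alone sample 2 or 3, 5 in MC38 without cells alone sample 4, and 5 in HT29 without cells alone sample 3 or SIS ECM sample 5.

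Tests of the difference in response between lines called few members as well. The SIS ECM response differed between MC38 and CT26 for 3 of 56 members (8.27% of all genes), Hspa1b, Dnajb14 and Dnajb2, and for 8 with the sample number as a block (1721 of all 14159 genes). In edgeR the block added Hspb8 (given below), Dnaja3 (-0.41, adjusted p = 0.022) and Dnajc18 (-0.30, adjusted p = 0.032). It also added Hspb6 (-0.66, adjusted p = 0.020) and Hspa9 (-0.28, adjusted p = 0.047). Without CT26 SIS ECM sample 4 or 5, 5 members differed, and the shares of all genes in those fits are not given. The response of HT29 differed from the mean of the mouse lines for 3 of 60 members matched by symbol (5.45% of all genes), HSPA1B, DNAJB14 and DNAJC1. With the block HSPA9 differed as well (-0.30, adjusted p = 0.0043 in edgeR), so that 4 members differed, beside 1031 of all 12343 genes.

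**Figure D1:**
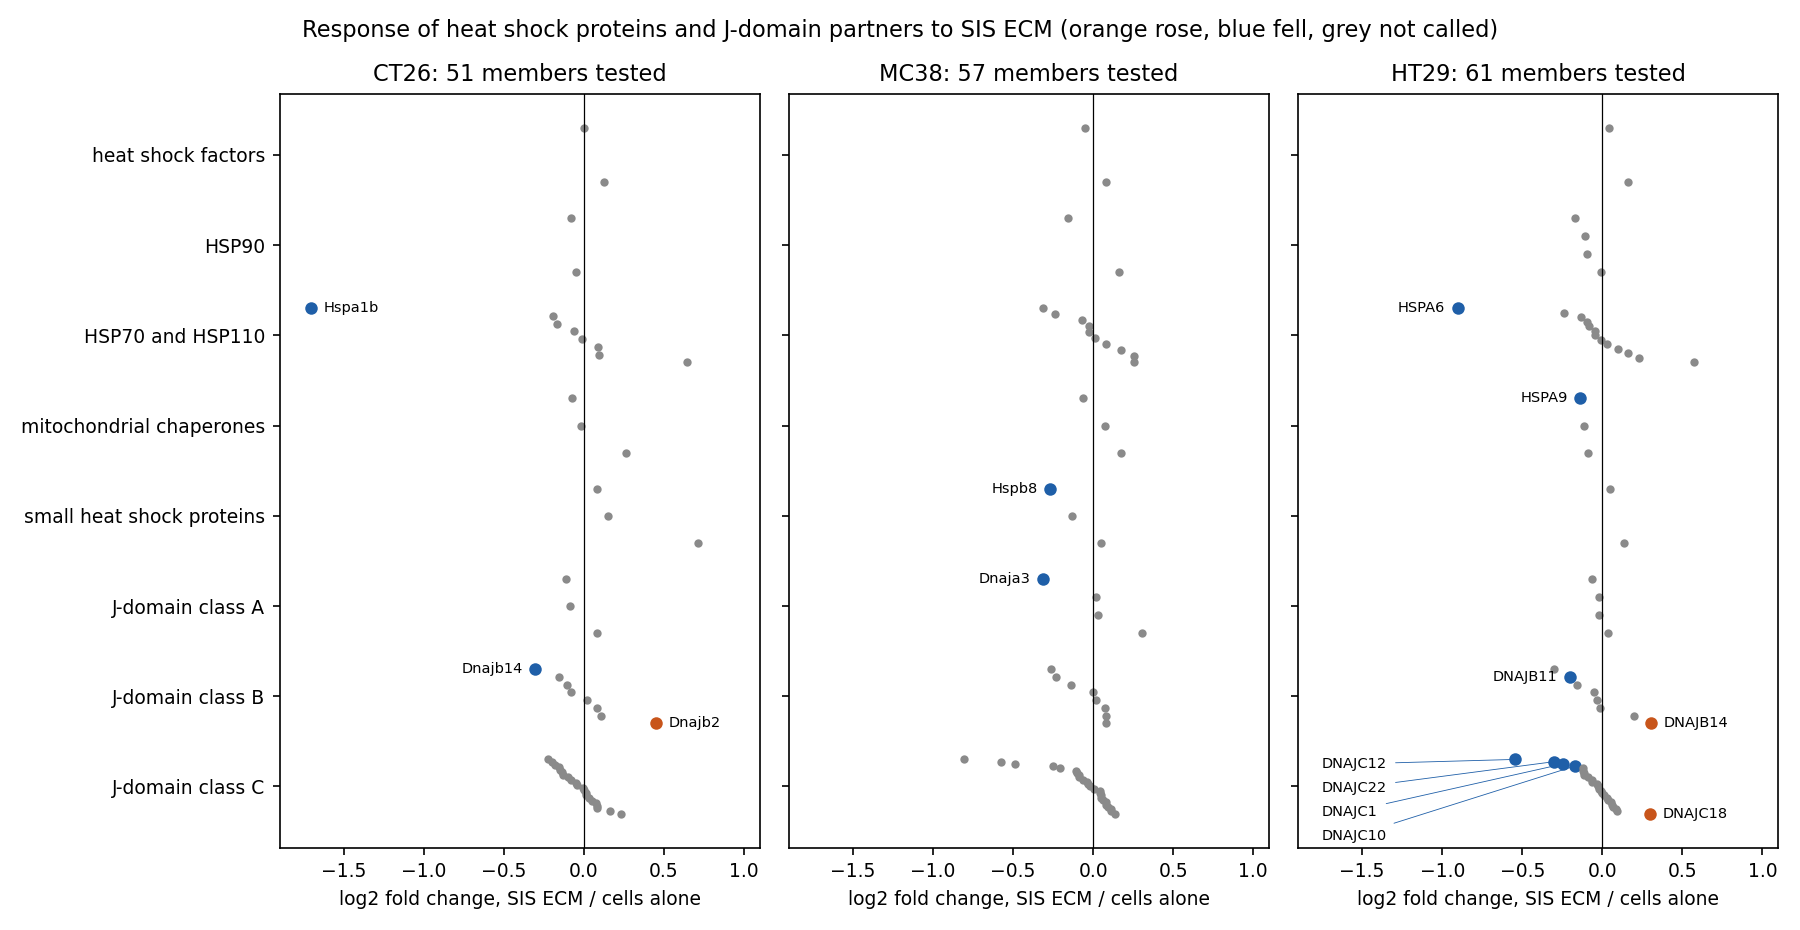
Log2 fold change of SIS ECM over cells alone (x axis) for every tested member, 1 dot per gene, arranged by role (y axis) in CT26, MC38 and HT29. Called members are named: Hspa1b in CT26 (-1.70) and HSPA6 in HT29 (-0.90) lie farthest from 0, and the heat shock factors and HSP90 genes hold no called member.

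Neither heat shock factor was called in any line. Hsf1 had a log2 fold change of 0.12 ± 0.12 (± SE) in CT26 and -0.05 ± 0.07 in MC38, and HSF1 by 0.04 ± 0.05 in HT29, with adjusted p of 0.56, 0.68 and 0.65. Hsf2, a factor that can pair with Hsf1, had a log2 fold change of -0.00 ± 0.07 in CT26 (adjusted p = 0.99) and 0.08 ± 0.06 in MC38 (adjusted p = 0.47), and HSF2 by 0.16 ± 0.08 in HT29 (adjusted p = 0.20). The HSP90 genes were not called either: Hsp90aa1 had a log2 fold change of -0.05 ± 0.16 in CT26 and 0.16 ± 0.15 in MC38, and HSP90AA1 by -0.01 ± 0.06 in HT29. For Hsp90ab1 the log2 fold changes were -0.08 ± 0.09 in CT26 and -0.15 ± 0.08 in MC38, and for HSP90AB1 -0.11 ± 0.06 in HT29. Reads of HSP90 genes and their human pseudogene copies, 9 of which are among the members, may have been divided by the counting.

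By size, the largest SIS ECM response among the tested members was a fall of the inducible HSP70 gene Hspa1b in CT26. The 6 libraries of cells alone held 1.39 to 2.11 CPM (median 1.85) and the 6 SIS ECM libraries 0.241 to 0.794 CPM (median 0.533). Every SIS ECM library lay below every library of cells alone. The log2 fold change was -1.70 ± 0.23 (adjusted p = 3.5e-04), or 3.26-fold lower, and it was -1.46 among samples 1 to 3 (adjusted p = 0.0053) and -2.13 among samples 4 to 6 (adjusted p = 2.1e-04). The gene lies at chr17:34956436-34959238 on the minus strand (mm10, GENCODE M21). In bulk RNA, fewer cells that carry a transcript and less of it per cell cannot be told apart. The depth was low, with 25 to 44.9 counts per library of cells alone and 4 to 17 per SIS ECM library, and the assignment of reads between Hspa1b and its near-identical copy Hspa1a is uncertain.

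In MC38, Hspa1b was not called. Cells alone samples 1 to 5 held 2.20, 1.82, 2.47, 2.23 and 3.02 CPM, and SIS ECM samples 1, 3, 4, 5 and 6 held 2.28, 1.42, 2.84, 2.39 and 2.27 CPM. The groups overlapped throughout, and the log2 fold change was -0.07 ± 0.19 (adjusted p = 0.86). The response differed from that of CT26 by 1.63 ± 0.31 on the log2 scale (adjusted p = 0.0018 for the interaction in edgeR's quasi-likelihood test).

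In HT29 the inducible HSP70 gene that fell was HSPA6, which rodents lack. Cells alone held 2.79 to 4.63 CPM (median 3.10) and SIS ECM libraries 1.14 to 2.13 CPM (median 1.94), without overlap. The log2 fold change was -0.90 ± 0.15 (adjusted p = 6.9e-04), with -1.02 among samples 1 to 3 (adjusted p = 0.0098) and -0.76 among samples 4 to 6 (adjusted p = 0.06). HSPA1B, at 343 to 446 CPM in cells alone and 377 to 428 CPM with SIS ECM, had a log2 fold change of -0.05 ± 0.06 (adjusted p = 0.65). For HSPA1A it was -0.09 ± 0.06 (adjusted p = 0.40). The libraries of both groups overlapped for these abundant genes. Reads of HSPA6 and the close copy HSPA7 may have been divided by the counting. The HT29 response of HSPA1B differed from the mean of the mouse lines by 0.82 ± 0.15 (adjusted p = 6.5e-04), a mean that includes the CT26 fall.

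**Figure D2:**
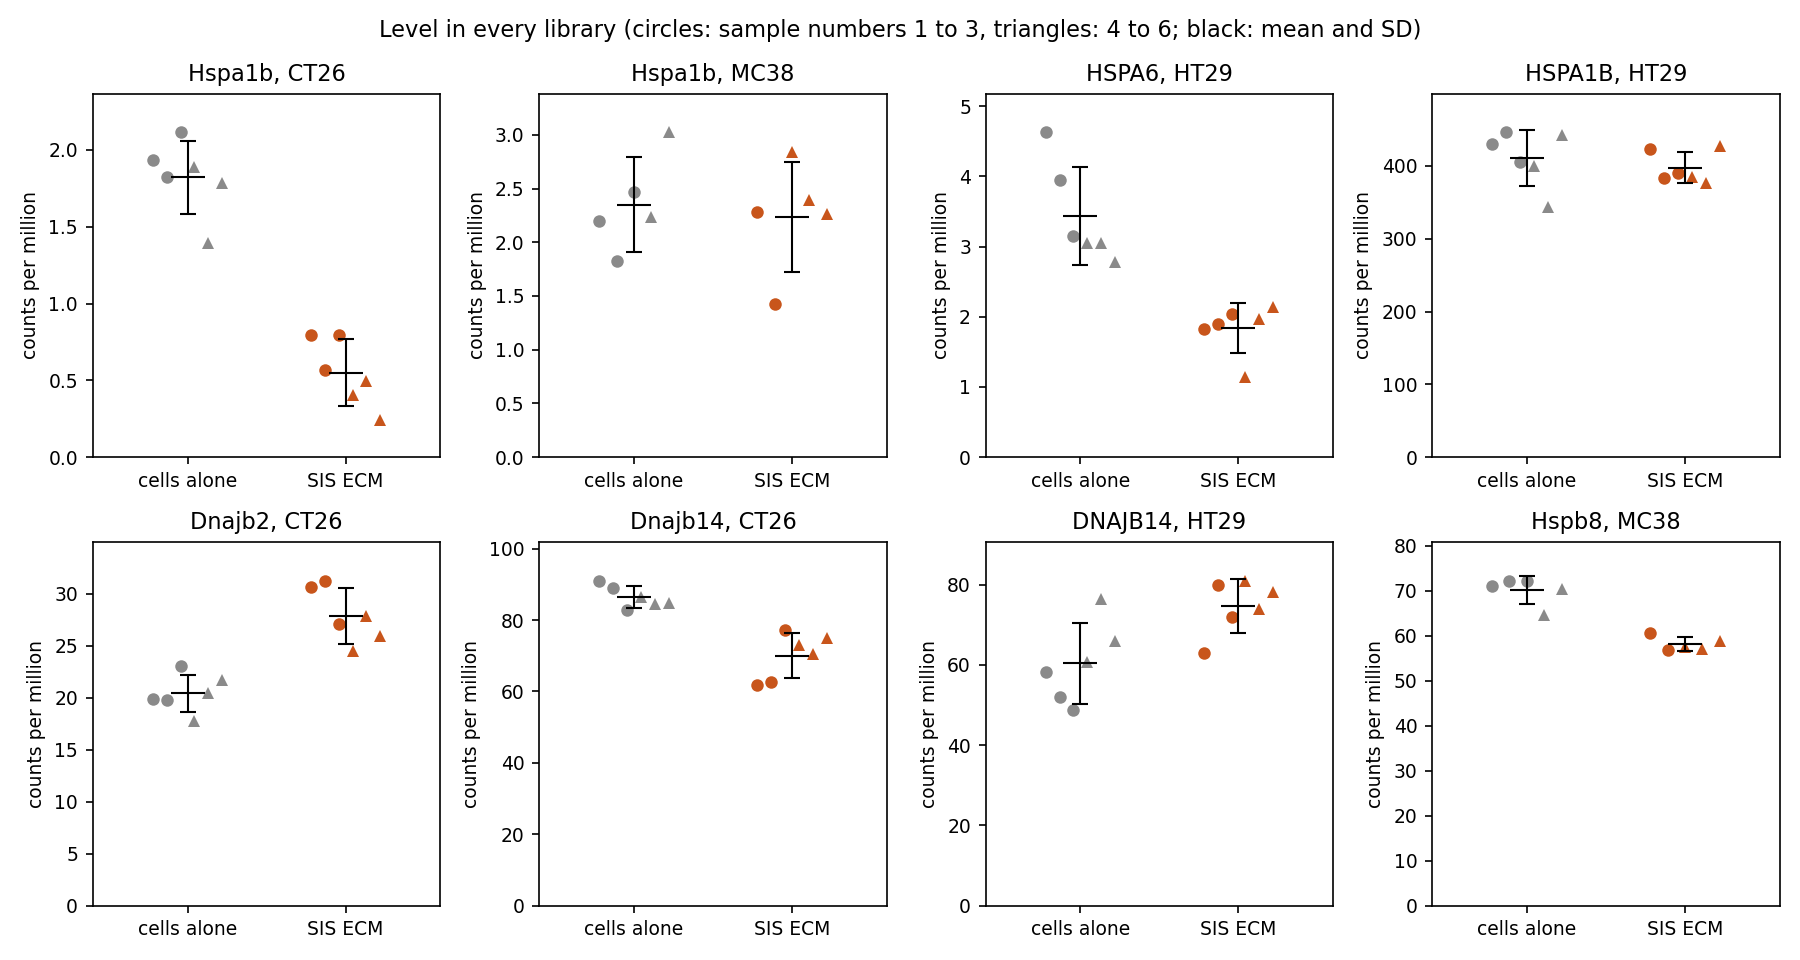
CPM (y axis, from 0) in every library of cells alone (grey) and SIS ECM (orange) for 7 genes in 8 panels, with circles for samples 1 to 3, triangles for samples 4 to 6 and black bars for the mean and SD. Hspa1b in CT26, HSPA6 in HT29 and Hspb8 in MC38 show groups that do not overlap, while HSPA1B in HT29 and Hspa1b in MC38 overlap.

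The other cytosolic HSP70 and HSP110 genes were not called in any line. Hspa8, the constitutive HSP70, had a log2 fold change of 0.09 ± 0.13 in CT26 and 0.25 ± 0.29 in MC38, and HSPA8 by -0.13 ± 0.06 in HT29, with adjusted p of 0.75, 0.62 and 0.17. Hsph1, the HSP110 nucleotide exchange factor, had a log2 fold change of -0.06 ± 0.18 in CT26 and 0.26 ± 0.22 in MC38, and HSPH1 by 0.03 ± 0.04 in HT29. In MC38 the cultures hold the sample numbers unequally. Cells alone have 3 libraries of samples 1 to 3 and 2 of samples 4 to 6, against 2 and 3 with SIS ECM. Hspa8 and Hsph1 were higher in samples 4 to 6, so their MC38 fold changes include part of that difference. The same imbalance bears on Hsp90aa1 and Dnaja1 in MC38. Values of Hspa8 and Hsph1 in every MC38 library are given below. Hspa4, another exchange factor, had a log2 fold change of -0.19 ± 0.08 in CT26 (adjusted p = 0.15) and -0.02 ± 0.06 in MC38, and HSPA4 by -0.01 ± 0.04 in HT29.

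Among mitochondrial chaperones, HSPA9 (mortalin, the mitochondrial HSP70) fell in HT29. Cells alone held 453 to 496 CPM (median 462) and SIS ECM libraries 404 to 449 CPM (median 426), so the groups did not overlap. The change was small, -0.14 ± 0.04 (adjusted p = 0.036), and with 1 library left out in turn it was called in 5 of 12 fits. HSPD1 (HSP60) and HSPE1 (HSP10), which form the mitochondrial folding chamber, had a log2 fold change of -0.11 ± 0.05 and -0.09 ± 0.06 in HT29 (adjusted p = 0.19 and 0.39). In CT26, Hspa9 stood higher with SIS ECM by 0.26 ± 0.17 (adjusted p = 0.36), a difference that passed the test once the sample number was a block (0.26, adjusted p = 0.016), and in MC38 it had a log2 fold change of -0.06 ± 0.12 (adjusted p = 0.78).

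Among small heat shock proteins, Hspb8 fell in MC38. Cells alone samples 1 to 5 held 71.0, 72.1, 72.1, 64.6 and 70.4 CPM, and SIS ECM samples 1, 3, 4, 5 and 6 held 60.5, 56.7, 57.5, 57.1 and 58.8 CPM. All 5 SIS ECM libraries lay below all 5 libraries of cells alone. The log2 fold change was -0.27 ± 0.05 (adjusted p = 0.0090), with -0.30 among samples 1 to 3 and -0.23 among samples 4 to 6 (adjusted p = 2.1e-04 and 0.014). The gene lies at chr5:116408491-116422864 on the minus strand. In CT26, Hspb8 had a log2 fold change of 0.08 ± 0.10 (adjusted p = 0.67), and the difference between the lines did not pass the test (-0.36 ± 0.12, adjusted p = 0.070). It passed with the sample number as a block (-0.37, adjusted p = 0.0067), with a term for the 2 sets of numbers (-0.34, adjusted p = 8.0e-05) and in 3 of 22 fits that left out 1 library each.

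Hspb6, a small heat shock protein best known from muscle and named here after its values were seen, stood at 4.99 ± 1.73 CPM (SD, n = 6) in CT26 cells alone and 8.17 ± 2.19 CPM (SD, n = 6) with SIS ECM. The log2 fold change of 0.71 ± 0.23 missed the threshold (adjusted p = 0.067). It passed with the sample number as a block (0.73, adjusted p = 9.8e-04) and within samples 1 to 3 (0.63, adjusted p = 0.015) and 4 to 6 (0.85, adjusted p = 4.0e-04). With the block, 5 of 51 members were called in CT26, the 3 above with Hspa9 and Hspb6, beside 18.6% of all genes. HSPB1 in HT29 had a log2 fold change of 0.13 ± 0.05 (adjusted p = 0.11).

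Of the J-domain proteins of class A, the bacterial DnaJ type that works with HSP70 in the cytosol and mitochondria, only Dnaja3 in MC38 was called in the 3 lines. Dnaja3 (Tid1) is the mitochondrial member. Cells alone samples 1 to 5 held 42.7, 46.7, 44.5, 38.1 and 40.3 CPM, and SIS ECM samples 1, 3, 4, 5 and 6 held 31.5, 31.9, 37.0, 33.9 and 36.2 CPM. The groups did not overlap, and the log2 fold change was -0.32 ± 0.07 (adjusted p = 0.018). The fall was -0.50 among samples 1 to 3 (adjusted p = 1.7e-06) and -0.14 among samples 4 to 6 (adjusted p = 0.20), and it was no longer called without cells alone sample 2 or 3. Dnaja1 and Dnaja2, the cytosolic partners of Hspa8, had a log2 fold change of -0.11 ± 0.14 and -0.09 ± 0.06 in CT26 and 0.31 ± 0.14 and 0.03 ± 0.07 in MC38, none of them called.

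Class B held the J-domain members called in CT26. Dnajb2, which brings ubiquitinated clients to degradation, rose: cells alone held 17.8 to 23.0 CPM (median 20.2) and SIS ECM libraries 24.5 to 31.2 CPM (median 27.5), without overlap. Its log2 fold change was 0.45 ± 0.08 (adjusted p = 0.0034), or 1.36-fold, with 0.50 among samples 1 to 3 and 0.39 among samples 4 to 6 (adjusted p = 0.014 and 0.0027). The gene lies at chr1:75236406-75245692 on the plus strand. In MC38 the cells alone samples 1 to 5 held 24.4, 25.0, 23.4, 26.7 and 27.7 CPM of Dnajb2, and SIS ECM samples 1, 3, 4, 5 and 6 held 14.7, 16.3, 23.2, 27.8 and 24.3 CPM. SIS ECM samples 1 and 3 were lowest there, and the difference between the lines was -0.72 ± 0.17 (adjusted p = 0.0096).

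Dnajb14, a J-domain protein anchored in the membrane of the endoplasmic reticulum and facing the cytosol, was the only member called in 2 lines, and in opposite directions. In CT26, cells alone held 82.7 to 91.0 CPM (median 85.6) and SIS ECM libraries 61.9 to 77.1 CPM (median 71.9), without overlap, a log2 fold change of -0.30 ± 0.07 (adjusted p = 0.011). In HT29, cells alone held 48.8 to 76.5 CPM (median 59.5) of DNAJB14 and SIS ECM libraries 62.9 to 80.9 CPM (median 76.1), with overlap, a log2 fold change of 0.31 ± 0.09 (adjusted p = 0.029). The HT29 rise was called in 5 of 12 fits that left out 1 library each, was 0.43 among samples 1 to 3 (adjusted p = 0.023) and 0.19 among samples 4 to 6 (adjusted p = 0.28). The response differed between HT29 and the mean of the mouse lines by 0.41 ± 0.10 (adjusted p = 0.0068), and between MC38 and CT26 by 0.37 ± 0.08 (adjusted p = 0.0067). The mouse gene lies at chr3:137867675-137916557 on the plus strand.

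HT29 held the other called J-domain members. DNAJB11, a J-domain protein of the endoplasmic reticulum, fell from 89.8 to 108 CPM (median 98.0) in cells alone to 83.6 to 89.5 CPM (median 85.7) with SIS ECM, a log2 fold change of -0.20 ± 0.04 (adjusted p = 0.0040). DNAJC1, which also sits in the endoplasmic reticulum membrane, fell from 26.0 to 29.7 CPM to 22.5 to 25.0 CPM, by -0.24 ± 0.04 (adjusted p = 0.0012). The groups did not overlap for either gene. DNAJC10, a disulfide reductase of the same compartment, fell by -0.17 ± 0.05 (adjusted p = 0.043), with overlapping groups and a call in 3 of 12 fits that left out 1 library each. For DNAJC1 the HT29 response differed from the mean of the mouse lines by -0.24 ± 0.07 (adjusted p = 0.040), a difference called in 6 of 34 fits that left out 1 library each.

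Among the remaining class C genes in HT29, DNAJC12, a cochaperone of the aromatic amino acid hydroxylases, fell from 3.52 to 4.79 CPM (median 3.76) in cells alone to 2.34 to 2.98 CPM (median 2.68) with SIS ECM. Its log2 fold change was -0.54 ± 0.10 (adjusted p = 0.0014). DNAJC22 fell from 23.3 to 26.7 CPM (median 24.5) to 18.9 to 20.8 CPM (median 20.2), by -0.30 ± 0.05 (adjusted p = 2.9e-04), and DNAJC18 rose from 2.86 to 3.85 CPM (median 3.57) to 3.94 to 4.93 CPM (median 4.22), by 0.30 ± 0.09 (adjusted p = 0.032). The groups overlapped for none of the 3. DNAJC18 was called in 6 of 12 fits that left out 1 library each. Within samples 4 to 6 of HT29 alone, with 3 libraries per group, none of the 61 members was called (edgeR, 10 at an unadjusted p under 0.05; 2.73% of all genes called), and within samples 1 to 3 5 were (4.69% of all genes).

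Among cochaperones and partners outside the families, up to 3 genes of a list were called in a line. Of 29 HSP90 and HSP70 cochaperones, 3 rose in CT26 (Tsc1 by 0.29, St13 by 0.24 and Fnip1 by 0.38), 2 rose in MC38 (Fnip1 by 0.28 and Cdc37l1 by 0.24) and 2 fell in HT29 (CDC37 by -0.13 and AHSA1 by -0.14). These were 10.3%, 6.9% and 6.9% of the list, beside 6.15% of all genes higher in CT26, 3.82% higher in MC38 and 5.79% lower in HT29. St13 joins HSP70 to HSP90, Fnip1 and Tsc1 bind HSP90 and slow its ATPase, and CDC37 brings kinases to HSP90. Of 15 HSF1 target genes outside the families, none was called in CT26, Serpinh1, the collagen chaperone HSP47, fell by -0.26 in MC38 and AHSA1 fell in HT29, where 14 were tested. This list shares STIP1, AHSA1 and FKBP4 with the cochaperones and TCP1 with the chaperonin subunits that follow, so AHSA1 is counted in both lists. Of 15 subunits of the TRiC chaperonin and prefoldin, which fold actin and tubulin, Pfdn2 rose by 0.44 in CT26, PFDN6 fell by -0.16 in HT29 and none was called in MC38. Of 12 mitochondrial partners, 1 rose (Grpel2, by 0.20) and 1 fell (Lonp1, by -0.39) in MC38, 2 fell in HT29 (AFG3L2 and TIMM44) and none was called in CT26. List medians lay between -0.07 and 0.06 in the 3 lines, beside -0.00 to 0.01 over all genes.

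In the mouse lines more members differed between the sample numbers than between the cultures. With culture in the model, 28 of 51 members differed between samples 4 to 6 and 1 to 3 in CT26 (16 higher and 12 lower). In MC38, 25 of 57 differed (18 higher and 7 lower in samples 4 to 6). Of all genes, 52.7% differed in CT26 (26.5% higher and 26.3% lower) and 40.8% in MC38 (19.9% and 20.9%). The members' shares for both directions together, 54.9% and 43.9%, were near the background. In MC38 the members leaned to higher values, 18 against 7, where all genes were nearly even, and this split was not tested. In HT29 none of 61 differed in edgeR (0% of all genes) or in DESeq2 (86 of all 15207 genes). At an unadjusted p under 0.05, edgeR gave 15 members, beside 2473 of all 15207 genes. Of 51 members tested in both mouse lines, 11 were higher in samples 4 to 6 in both, 5 were lower in both and 0 were called in opposite directions. Of the 11472 genes tested in both lines, 14.3% were higher in both, 15% lower in both and 0.976% opposite, beside 21.6%, 9.8% and 0% of the members. The mitochondrial RNA share moved with the same numbers, as given above, and its part in these differences was not tested.

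Hspa8 had the largest difference of the members in MC38. Cells alone samples 1 to 3 held 1787, 1767 and 1851 CPM and samples 4 and 5 held 3603 and 3776 CPM. SIS ECM samples 1 and 3 held 1794 and 1885 CPM and samples 4, 5 and 6 held 3977, 3741 and 3841 CPM. Both cultures were between 1767 and 1885 CPM at the low numbers and at 3603 CPM or more at the high numbers, with no overlap. The log2 difference was 1.05 ± 0.05 (adjusted p = 3.9e-09), and in CT26 it was 0.42 ± 0.05 (adjusted p = 2.0e-06), from 1787 to 2069 CPM (median 1875) in samples 1 to 3 to 2430 to 2670 CPM (median 2571) in samples 4 to 6.

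Hsph1, whose promoter is shown above, was also higher at the high numbers. In MC38 the cells alone samples 1 to 5 held 262, 257, 259, 445 and 443 CPM, and SIS ECM samples 1, 3, 4, 5 and 6 held 291, 264, 483, 468 and 486 CPM. The log2 difference between the numbers was 0.78 ± 0.04 in MC38 (adjusted p = 8.5e-09) and 0.64 ± 0.05 in CT26 (adjusted p = 1.3e-07), where samples 1 to 3 held 171 to 212 CPM (median 200.4) and samples 4 to 6 held 296 to 314 CPM (median 299.5). The sets of numbers did not overlap in either line. Hsp90aa1 was higher in samples 4 to 6 by 0.51 ± 0.07 in CT26 (adjusted p = 2.0e-05) and 0.45 ± 0.07 in MC38 (adjusted p = 2.2e-04), and Dnaja1 by 0.43 ± 0.08 and 0.43 ± 0.07 (adjusted p = 2.9e-04 and 2.3e-04).

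The mitochondrial chaperones differed in both directions. Hspe1 was higher in samples 4 to 6, at 258 to 298 CPM (median 276) against 161 to 199.8 CPM (median 188) in CT26, a log2 difference of 0.59 ± 0.06 (adjusted p = 7.2e-07), and by 0.40 ± 0.06 in MC38 (adjusted p = 2.2e-04). Hspd1, which shares the printed promoter with Hspe1 and builds the same chamber, differed by 0.15 ± 0.07 in CT26 (adjusted p = 0.076) and was not called in MC38. Hspa9 was lower in samples 4 to 6, at 1118 to 1404 CPM (median 1217) against 1600 to 2186 CPM (median 1810) in CT26, a difference of -0.58 ± 0.05 (adjusted p = 1.8e-07). In MC38 the difference of Hspa9 was -0.39 ± 0.04 (adjusted p = 9.9e-06), again without overlap of the sets of numbers.

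**Figure D3:**
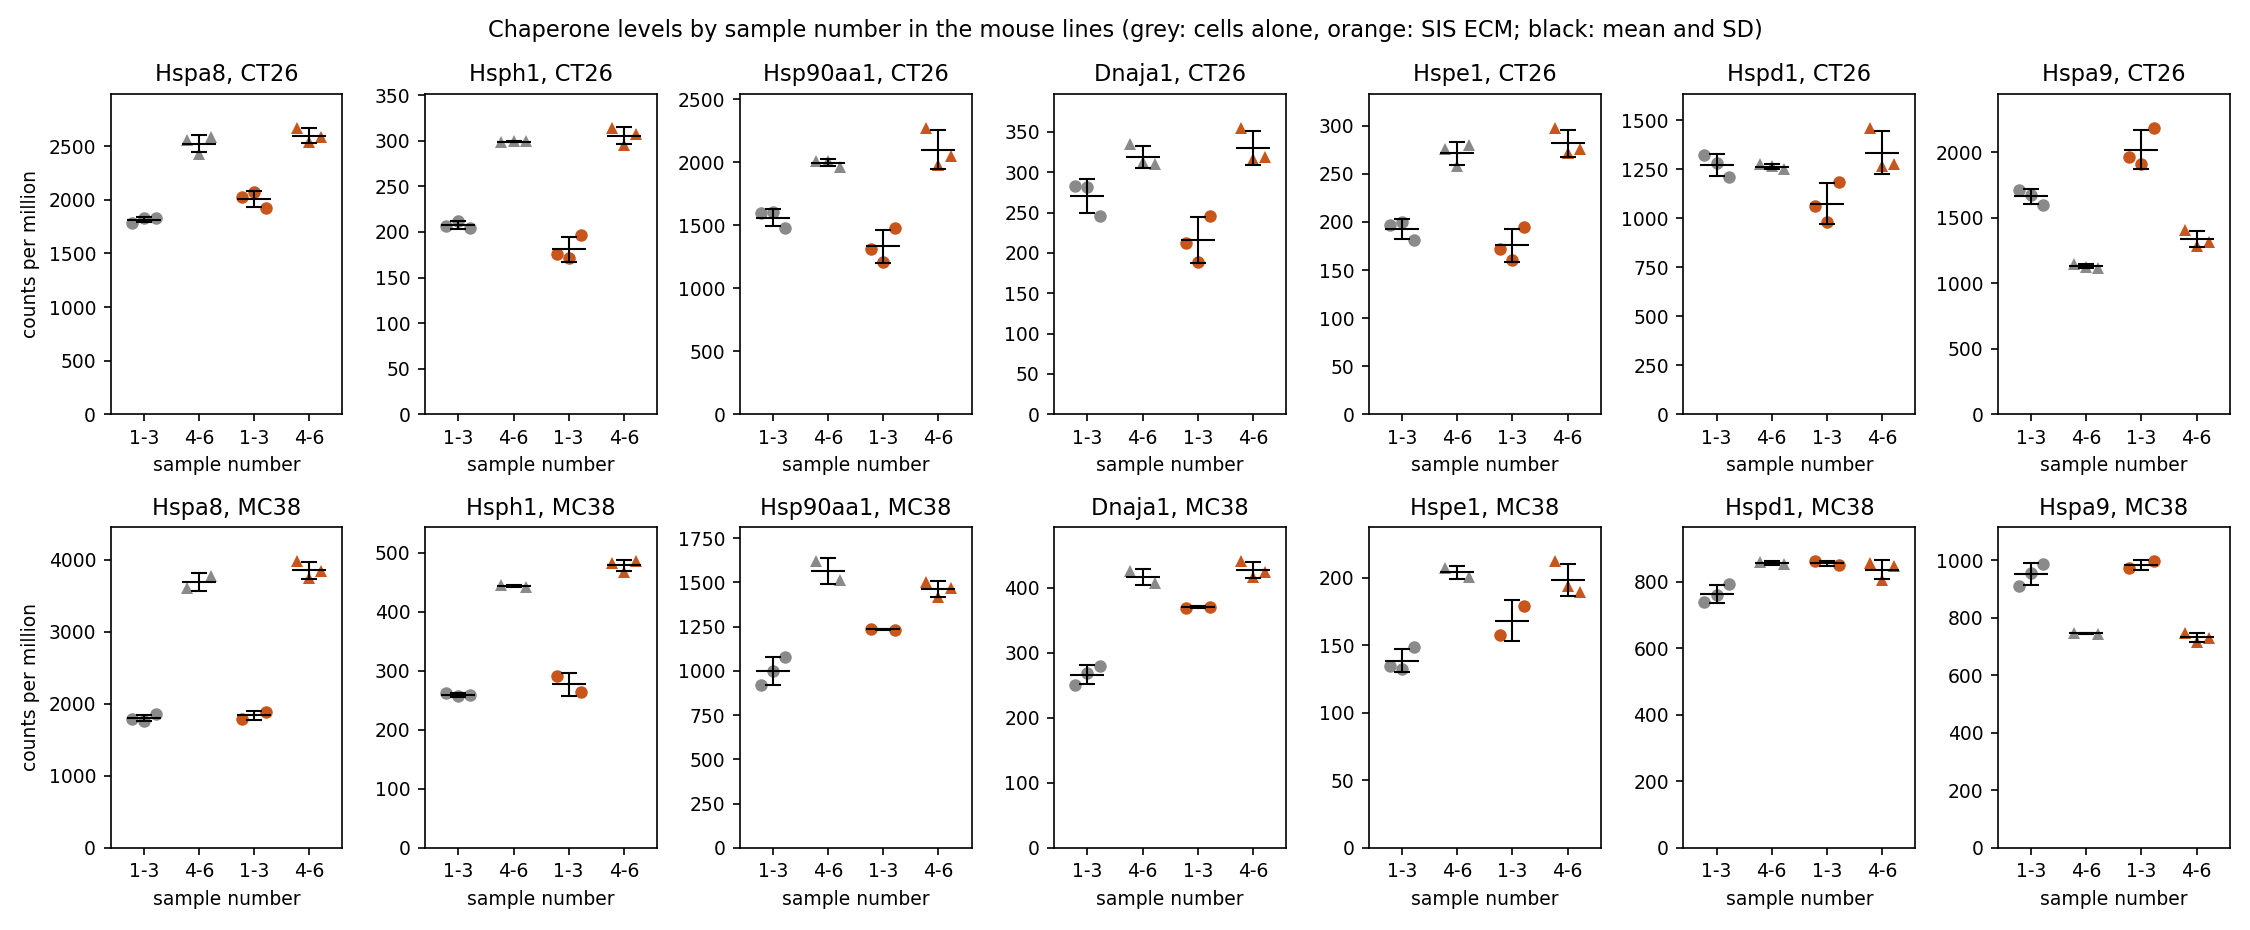
CPM (y axis, from 0) of 7 chaperones in CT26 (top) and MC38 (bottom), by sample numbers 1-3 and 4-6 (x axis), for cells alone (grey) and SIS ECM (orange), 1 point per library with the mean and SD. Hspa8 in MC38 stands between 1767 and 1885 CPM in samples 1 to 3 and at 3603 CPM or more in samples 4 to 6 in both cultures, and Hspa9 goes the other way in both lines.

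Several J-domain genes differed as well. In CT26, Dnajc15, an inner mitochondrial membrane J-domain protein, was higher in samples 4 to 6 by 0.83 ± 0.07 (adjusted p = 1.7e-07), and Dnajc24, which takes part in diphthamide synthesis, by 0.73 ± 0.07 (adjusted p = 8.5e-07). Both were also higher in MC38, each by 0.39 (adjusted p = 9.1e-04 and 0.0021). In CT26 these differences were larger than those of Hsph1, Hspe1 and Hspa8, as were those of Hspb6 (-0.79) and Dnajc19 (0.70), which was named after its values were seen. Dnajb1, the cytosolic HSP40 and a typical HSF1 target, was higher in MC38 by 0.39 ± 0.05 (adjusted p = 3.1e-05) and was not called in CT26. Neither heat shock factor was called in either line. Of the 11 members higher in both lines, 7 were in the promoter table and 3 of them (Hsph1, Hspe1 and Dnaja1) held a pair of units in at least 1 window. Other windows of Dnaja1 held none, and Hspa8, Hsp90aa1, Hspa13 and Dnajc2 were not in the table. Of the 5 lower in both lines 2 were in the table and 1 (Dnajc27) held a pair. Over the table, 25.9% of the members and 14.5% of all genes held a pair, and a difference from these shares was not tested. Among the lists, 13 of 15 TRiC and prefoldin subunits were higher in samples 4 to 6 in CT26 and 6 of 15 in MC38, beside 26.5% and 19.9% of all genes, with list medians of 0.35 and 0.10. In CT26, 1 subunit was lower, and in MC38 none was. Of the 29 cochaperones, 8 were higher and 6 lower in CT26 and 10 and 4 in MC38. Of the 15 HSF1 targets outside the families, some of which are also in the cochaperone and TRiC lists, 7 were higher and 4 lower in CT26 and 6 and 2 in MC38. Of the 12 mitochondrial partners, 2 were higher and 2 lower in CT26 and 4 and 1 in MC38, and the medians of these 3 lists lay between -0.02 and 0.09.

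**Figure D4:**
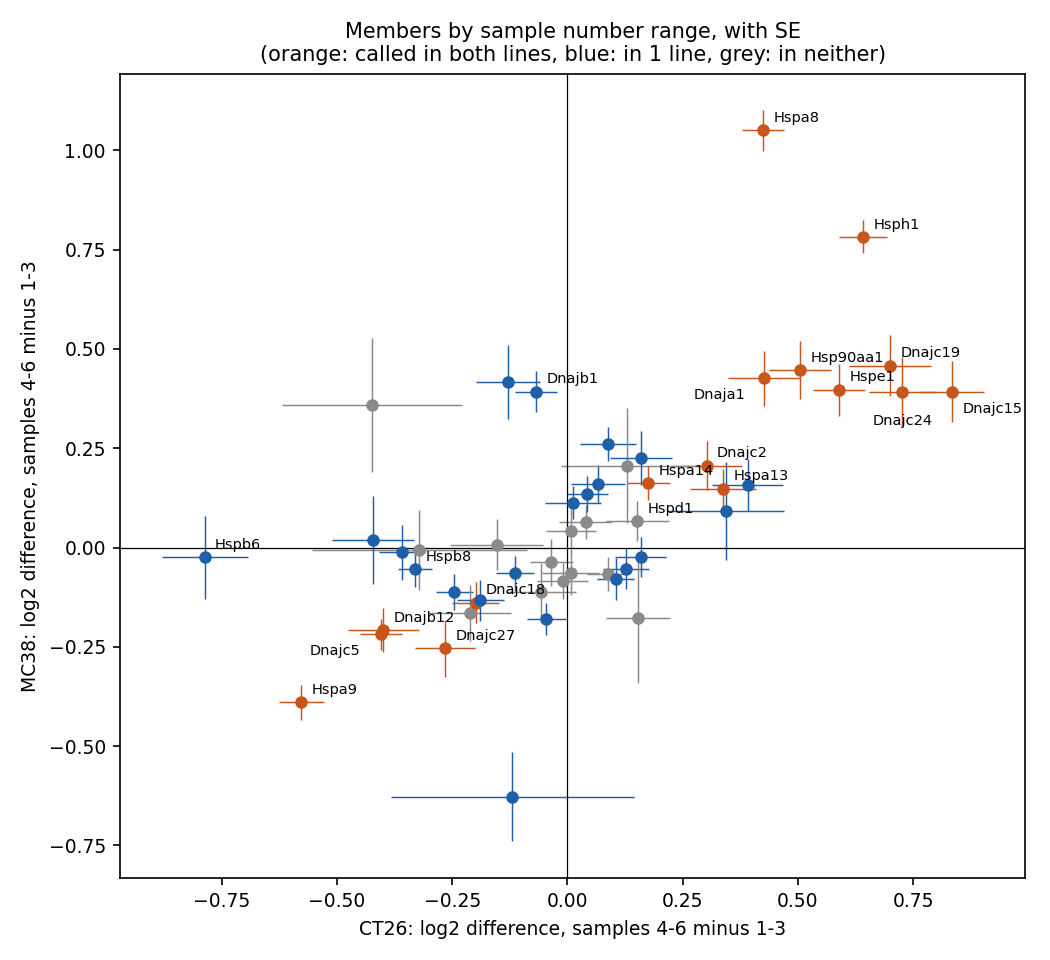
Log2 difference of samples 4 to 6 minus 1 to 3 in CT26 (x axis) and MC38 (y axis) for the members tested in both lines, 1 point per gene with its SE, orange where called in both. Hspa8 and Hsph1 lie at the upper right, Hspa9 at the lower left and Hspd1 near 0.

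In MC38 the SIS ECM response itself depended on the sample numbers. It differed between samples 4 to 6 and 1 to 3 for 15 of 57 members. In samples 4 to 6, 4 responses were more positive and 11 more negative. Of all genes, 21.9% differed (10.4% more positive and 11.5% more negative). In CT26 none of 51 members differed in edgeR, beside 0.383% of all genes, and DESeq2 called 2, beside 344 of all 12269 genes. At an unadjusted p under 0.05, edgeR gave 9 members, beside 2241 of all 12269 genes. Without SIS ECM sample 3, 14 CT26 members differed. The share of all genes in that fit is not given, so the 14 cannot be set against the 0.383%. In HT29 none of 61 members differed in edgeR or DESeq2, beside 0% of all genes. At an unadjusted p under 0.05, edgeR gave 0 members, beside 236 of all 15207 genes.

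Dnaja1 had the smallest p among these members. In MC38 cells alone samples 1 to 5 it held 250.3, 269, 280.0, 426 and 408 CPM, and in SIS ECM samples 1, 3, 4, 5 and 6 it held 369, 371, 441, 417 and 424 CPM. SIS ECM libraries were above cells alone at the low numbers and level with them at the high ones. The log2 fold change with SIS ECM was 0.47 in samples 1 to 3 (adjusted p = 1.4e-07) and 0.03 in samples 4 to 6 (adjusted p = 0.74), a difference of -0.44 ± 0.07 (adjusted p = 4.0e-04). Hsp90aa1 rose by 0.30 in samples 1 to 3 and stood at -0.10 in samples 4 to 6, with a difference of -0.40 ± 0.09 (adjusted p = 0.0030). Dnajb2, which rose in CT26, fell by -0.66 in samples 1 to 3 of MC38 and stood at -0.12 in samples 4 to 6, with a difference of 0.53 ± 0.12 (adjusted p = 0.0033).

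Within samples 1 to 3 of MC38 alone, 23 of 57 members were called (13 rose and 10 fell), beside 39.7% of all genes (19.3% and 20.4%). The mitochondrial RNA share also separated the cultures in these libraries, at 3.42% to 3.75% in cells alone and 4.92% to 4.94% with SIS ECM, and its part in these calls was not tested. Within samples 4 to 6, 3 of 58 were called, Hspb11, Hspb8 and Dnajc10, all lower, beside 17.1% of all genes. Samples 1 to 3 hold 3 libraries of cells alone and 2 of SIS ECM, and samples 4 to 6 hold 2 and 3. In CT26, 10 of 52 members were called within samples 1 to 3 and 9 of 51 within samples 4 to 6, beside 20% and 19% of all genes. The mitochondrial RNA share in samples 1 to 3 of CT26 was 4.82% to 5.01% in cells alone and 3.72% to 4.23% with SIS ECM, the opposite order to MC38, while the cultures overlapped in samples 4 to 6 of both lines. Hspa1b, Dnajb14, Dnajb2, Hspb6 and Hspa9 were called in the same direction in both sets of CT26 samples, with Hspa9 higher by 0.27 and 0.24. Dnaja1 fell by -0.34 in CT26 samples 1 to 3 (adjusted p = 0.039).

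**Figure D5:**
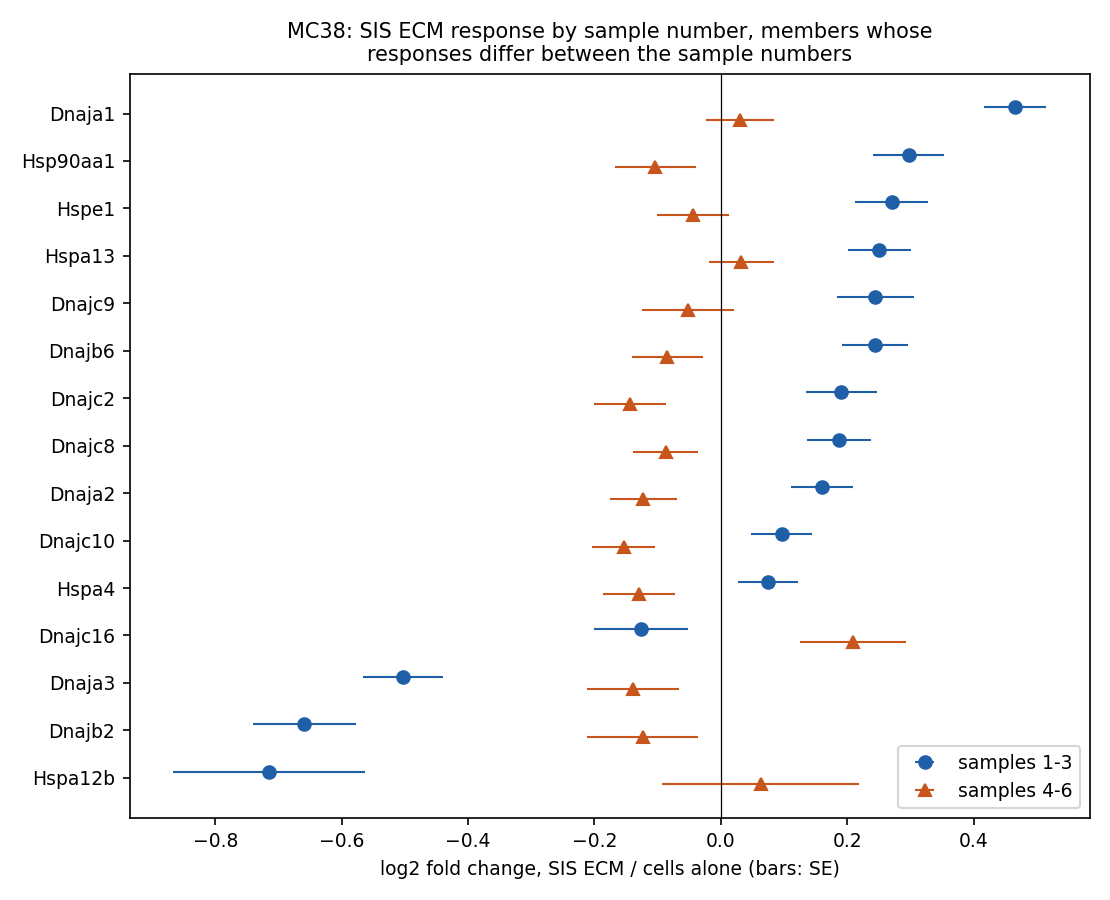
Log2 fold change of SIS ECM over cells alone in MC38 (x axis, bars are SE) in samples 1 to 3 (blue circles) and 4 to 6 (orange triangles) for the 15 members whose responses differed. Dnaja1 stands at 0.47 and 0.03, and Dnajb2 at -0.66 and -0.12.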

How the data were processed

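The 34 libraries (3 cell lines, polyadenylated RNA, day 7) were prepared with a stranded kit, per the labels' protocols. The authors deposited expected counts per gene, made with cutadapt 1.18, STAR 2.7.0f and RSEM 1.3.1 on builds mm10 and hg38, per the submitters' processing notes; whether the counting used strand is not stated in these sources. The authors also deposited tables of their own comparisons, with log2 fold changes and adjusted p-values (made with limma, per the submitters' processing notes). In the authors' deposited table Hspa1b had a log2 fold change of -1.72 and an adjusted p of 6.0e-06 in CT26. The other members called here with SIS ECM were also under 0.05 there. Under 0.05 there but not called here were Hspb6 (0.61, adjusted p = 0.035) and Hspa4 (-0.15, adjusted p = 0.042) in CT26 and DNAJB2 (-0.16, adjusted p = 0.046) in HT29. A further 34 per-sample columns of normalised values were not used.

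Expected counts were rounded to whole numbers. Genes were kept with edgeR's filterByExpr (minimum count 10), library sizes were scaled by TMM, and each line was fitted with edgeR 4.0.16 (quasi-likelihood test, R 4.3.3), with Benjamini-Hochberg adjustment over all genes of the fit and a threshold of 0.05. CPM values use the TMM-scaled sizes. CPM intervals are not given, and counting error adds to the spread for genes with few counts. Differences between MC38 and CT26, between HT29 and the mean of the mouse lines (16710 genes matched by symbol, counts summed per symbol) and between sample numbers were tested as interaction or added terms. Alternatives were DESeq2 1.42.0, RLE scaling, no filter, a replicate block, a term for the sample numbers, each set of numbers alone, counts summed per symbol and each library left out. The scripts were tested on simulated data.

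Samples with the same number deviated together in the mouse lines (correlations of deviations from the group means 0.222 to 0.484 over 6 pairs in CT26 and 0.189 to 0.321 over 4 pairs in MC38), as did other samples of the same set of numbers, so blocked values are printed for these lines where a call changes. The labels do not say that libraries of a group came from separate cultures, and the spread behind the p-values may then be partly or wholly technical. No 2 libraries held identical values.

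Members and gene lists were chosen with earlier results of these data known. Members are named where called with SIS ECM in at least 1 line or in the interaction of MC38 and CT26, where among the 6 smallest p between sample numbers per mouse line, or as 1 of 20 canonical members; from other lists up to 4 called genes per line are named. Mouse coordinates come from GENCODE M21 (mm10), whose 55450 gene IDs all matched, and promoters from RefSeq (GRCm38.p6).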

Additional observations from a re-analysis of the deposited data

Results flagged for a closer look

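In 8 of 176 groups of library values examined, 1 library lay far from the others of its group; chance gives about 1 in 20 groups. Dnajb1 was at 60.5 CPM in CT26 cells alone sample 4, below 64.4 to 66.7 in the others. Hspb8 was at 64.6 CPM in MC38 cells alone sample 4, below 70.4 to 72.1 in the others and still above every SIS ECM library. Hspd1 was at 806 CPM in MC38 SIS ECM sample 5, below 846 to 861 in the others. In HT29 cells alone sample 5, DNAJB1 was lowest at 101 CPM, DNAJB4 highest at 20.5 CPM and DNAJC12 highest at 4.79 CPM. HSPA6 was lowest at 1.14 CPM in HT29 SIS ECM sample 4, and HSPB1 highest at 173 CPM in HT29 SIS ECM sample 1.

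The SIS ECM response differed between MC38 and CT26 for 3 genes and between HT29 and the mouse lines for 3. On the log2 scale, MC38 minus CT26 was 1.63 for Hspa1b, 0.37 for Dnajb14 and -0.72 for Dnajb2. HT29 minus the mean of the mouse lines was 0.82 for HSPA1B, 0.41 for DNAJB14 and -0.24 for DNAJC1.

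In MC38 the response in samples 4 to 6 minus that in samples 1 to 3 passed the test for 15 members. It was negative for the HSP90 and HSP70 genes Hsp90aa1 (-0.40), Hspa13 (-0.22) and Hspa4 (-0.21), for the mitochondrial Hspe1 (-0.32), and for the J-domain genes Dnaja1 (-0.44), Dnaja2 (-0.29), Dnajb6 (-0.33), Dnajc2 (-0.34), Dnajc8 (-0.28), Dnajc9 (-0.30) and Dnajc10 (-0.25). It was positive for Hspa12b (0.77), Dnajb2 (0.53), Dnaja3 (0.36) and Dnajc16 (0.33).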

How the results depend on the processing

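The number of members called with SIS ECM (3 in CT26, 2 in MC38, 9 in HT29) stayed within 1.5 times under DESeq2, RLE scaling, no filter and counts summed per symbol. With the replicate block it was 5 in CT26 (2281 of all genes, against 1135), 2 in MC38 and 8 in HT29, where same-numbered samples correlated between -0.0956 and 0.0646 and shared only a number. With a term for the sample numbers it was 11 in CT26 (3545 of all genes), 8 in MC38 (3246) and 11 in HT29. In samples 1 to 3 alone it was 10 in CT26 (2484), 23 in MC38 (5287) and 5 in HT29 (719), and in samples 4 to 6 alone 9 in CT26 (2333), 3 in MC38 (2318) and 0 in HT29 (417); these fits hold fewer samples. The difference between MC38 and CT26 gave 8 members (1721 of all genes, against 1165) with the replicate block and 16 (3740) with the number term, and that between HT29 and the mouse lines gave 10 (1800 of all genes, against 671) with the number term. The sample-number difference in HT29 gave 2 members without a filter, and the response difference between sample numbers in CT26 gave 2 with DESeq2 and 3 without a filter. Apart from the number of samples, the cause of these shifts was not tested.

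Leaving out 1 library gave 3 to 6 members and 792 to 1364 of all genes in CT26, 1 to 5 and 626 to 1948 in MC38, and 5 to 10 and 1445 to 2464 in HT29. All-gene counts in MC38 moved most without cells alone sample 2 (626) and sample 4 (1948). It gave 3 to 5 members for MC38 against CT26, 2 to 3 for HT29 against the mouse lines, 23 to 28, 20 to 26 and 0 for the sample numbers in CT26, MC38 and HT29, and 0 to 14, 8 to 17 and 0 for the response difference between sample numbers. No gene called with SIS ECM changed direction under any of these alternatives. Hspa1b, Dnajb2 and Dnajb14 in CT26 and Hspb8 in MC38 kept their calls under every one of them; Dnaja3 in MC38 and the 9 HT29 members each lost the call under at least 1, of which DNAJB11, DNAJC12, DNAJC22 and HSPA6 lost it only in samples 4 to 6 alone. Depth limits Hspa1b, HSPA6 and other members near 1 CPM most.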
